A study of Mus musculus with 13 samples.

Results

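miR-142 is a microRNA (miRNA) of blood cells, and its counts were followed through small RNA-seq of thymic invariant natural killer T (iNKT) cells, T cells that recognise lipids presented by CD1d. The rows were chosen by name: the precursor (hairpin) mir-142a (mmu-mir-142a) and each mature sequence whose name starts with miR-142, namely miR-142a-5p, miR-142a-3p and miR-142b. These are 4 of the 2424 rows in the 2 count tables, 1 of 1127 precursors and 3 of 1297 mature sequences, and all 4 passed the filter on low counts. One library was made per mouse. The 6 wild type (WT) libraries came from C57BL/6 mice, and the 7 *Tet2/3* DKO libraries came from Tet2-/-Tet3flx/flxcd4cre mice. The latter lack Tet2 in every tissue and lose the floxed Tet3 alleles through a Cre recombinase driven by Cd4, which acts in T cells. The controls are labelled wild type, with no floxed allele or Cre named. Mice were 21 to 25 days old and of both sexes, and live TCRβ+ tetramer+ cells were sorted after depletion of CD24+ cells.

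miRNAs are cut from a folded primary transcript by Drosha, which frees the hairpin precursor, and then by Dicer, which leaves a short duplex. One strand of the duplex is kept in an Argonaute protein, and its bases 2 to 8, the seed, pair with target mRNAs. The strands are named after the 5′ and 3′ arms of the hairpin. miR-142 is known as a miRNA of all hematopoietic lineages, including T cells, with little expression outside blood, and both of its arms are used as regulators. TET2 and TET3 oxidise 5-methylcytosine in DNA.

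The sequences are shown because the miR-142 names belong to opposite strands of one short locus, which bears on what each count can hold. RefSeq (GRCm38.p6) places the mature sequences as follows, 5′ to 3′, with the seed in capitals. miR-142a-5p lies at chr11:87756867-87756887 on the plus strand, miR-142a-3p at chr11:87756903-87756925 on the plus strand and miR-142b at chr11:87756906-87756925 on the minus strand.
miR-142a-5p: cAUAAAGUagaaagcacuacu
miR-142a-3p: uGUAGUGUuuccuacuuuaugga
miR-142b: uCCAUAAAguaggaaacacu
The hairpins follow. Capitals mark the 2 arms in mir-142a, and in mir-142b the stretch (its bases 29 to 92) that is the reverse complement of the whole mir-142a hairpin.
mir-142a: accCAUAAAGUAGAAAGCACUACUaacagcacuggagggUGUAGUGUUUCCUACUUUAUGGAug
mir-142b: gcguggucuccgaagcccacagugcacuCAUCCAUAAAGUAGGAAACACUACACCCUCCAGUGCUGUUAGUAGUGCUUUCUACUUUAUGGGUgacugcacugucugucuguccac

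The mir-142a hairpin covers 64 bases of chromosome 11 (87756864 to 87756927, GRCm38, plus strand). It lies in an intron of the long noncoding RNA gene Mir142hg (87755577 to 87757270, plus strand), between exons at 87755577 to 87755613 and 87757039 to 87757270. mir-142b (87756841 to 87756955, minus strand, 115 bases) covers it whole. The nearest protein-coding genes are Supt4a, which ends 13240 bases before mir-142a, and Tspoap1, which starts 3613 bases after it. The 20 bases of miR-142b are the exact reverse complement of bases 4 to 23 of miR-142a-3p. miR-142b also resembles miR-142a-5p, since 16 of 18 aligned bases are identical and the differences are A11G and G14A (the base of miR-142a-5p first, positions counted from 1 at its 5′ end). The 3 seeds differ from each other. Among 1679 mature names in the RefSeq table, no other name carried any of these seeds, so the members' counts have no seed family beside them.

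Totals per library were 469117 to 1910526 precursor counts and 1110852 to 4361963 mature counts, with higher medians in *Tet2/3* DKO (1578644 and 3850244) than in WT (929254 and 1987326.5). Levels below are CPM, counts set to one common library total after scaling by TMM. TMM assumes that most miRNAs do not change, and here 59.7% of 350 tested precursors passed the test in one direction or the other, as did 55.6% of 401 mature sequences. The T cell markers miR-150-5p, miR-181a-5p and miR-342-3p summed to 144525 to 201238 CPM in WT and 124707 to 193079 CPM in *Tet2/3* DKO. miR-181a-5p made up most of this sum (log2 fold change -0.03, SE 0.123, edgeR, adjusted p = 0.832), while miR-150-5p (-1.18) and miR-342-3p (-0.68, SE 0.161, edgeR, adjusted p = 0.00148) were both lower in *Tet2/3* DKO. The 3 erythroid markers (miR-451a and both miR-144 arms, none at 0 in all libraries) summed to 16.1 to 38.1 CPM in WT and 0 to 3.87 CPM in *Tet2/3* DKO, and the 2 myeloid markers (both miR-223 arms, neither at 0 in all libraries) to 2.30 to 92.5 and 0.632 to 6.57 CPM. Cells of both lineages also make miR-142, and these sums were lower in *Tet2/3* DKO beside the members. Their part in the results was not tested. In bulk samples, fewer cells of a type and less RNA per cell cannot be told apart. The paper also describes iNKT cells of *Tet2/3* DKO mice as expanded and skewed towards the NKT17 subset, which expresses RORγt. The sort did not separate subsets, so subset make-up and genotype cannot be told apart in the members' counts.

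The mir-142a precursor row was lower in *Tet2/3* DKO than in WT, with no overlap between genotypes in TMM-scaled CPM. The hairpin contains both arms, so reads of the mature arms can also be counted in this row. In WT the row ranged from 79676 to 117268 CPM with a median of 105598, and in *Tet2/3* DKO from 37647 to 74310 with a median of 54460. The highest *Tet2/3* DKO library, replicate 7, stayed below the lowest WT library, replicate 6. As an unscaled share of the library, however, *Tet2/3* DKO replicate 7 (8.63%) lay above WT replicate 6 (6.96%). The separation thus depended on the scaling. The means were 103388 ± 12870 (SD, n = 6) and 54093 ± 11242 (SD, n = 7), or -0.93 on the log2 scale (SE 0.130, edgeR quasi-likelihood test, adjusted p = 8.33e-06). Among all 350 tested precursors, 27.1% were called lower and 32.6% higher in *Tet2/3* DKO. These are shares of rows, and some rows repeat nearly the same values. Examples are mir-669a-4 and mir-669a-5 (both 0.88 in log2 units) and mir-24-1 and mir-3074-1 (both -0.69). The shares and the balance of directions are therefore not those of independent miRNAs. For 32% of precursors no library of one genotype fell in the range of the other, 14% were lower with no overlap, and 14.3% were lower by at least as much as mir-142a.

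The precursor was one of the most abundant rows of its table. mir-142a took 6.96% to 9.94% of a WT library and 3.98% to 8.63% of a *Tet2/3* DKO library, and ranked 2 in all 6 WT libraries and 2 to 6 in *Tet2/3* DKO. The row above it in each WT library was mir-142b, whose counts exceeded those of mir-142a by 0.214% to 0.455% in every library (119 to 362 counts), with a log2 fold change of -0.93. The 2 rows together held 13.9% to 19.9% of WT precursor counts and 7.98% to 17.3% of *Tet2/3* DKO precursor counts. A read counted in both rows would enter this sum more than once, and other near-equal rows enter the library totals. The sum is therefore not the share of reads from this locus. The mir-142b hairpin contains the reverse complement of every base of mir-142a. The precursor table therefore cannot tell these strands apart unless strand was used in counting, and the strand setting is not given in the sources used here.

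The same near-equality was seen for some other hairpins that overlap on opposite strands. Of 22 such pairs, mir-142a and mir-142b included, 7 had 1000 or more counts. In one of them, mir-451a and mir-451b, both rows held 1079 counts. In the 4 pairs whose most abundant mature arm lies wholly inside the overlap, the smaller total was at least 97.6% of the larger. For mir-142a and mir-142b, one of these 4, it was 99.7% (1066428 and 1069697 counts over 13 libraries). In the 2 pairs whose main arm reaches outside the overlap, it was 1.46% (mir-203 and mir-203b) and 70.1% (mir-126a and mir-126b). The 4 also hold mir-24-1 with mir-3074-1 and mir-24-2 with mir-3074-2, whose totals are nearly the same, so they are not independent cases. Among pairs under 1000 counts with the arm inside, the share varied. It ran from 14.3% (mir-9-1 and mir-9b-1, 42 and 6 counts) to 100% (mir-497a and mir-497b, 298 counts each). The mature table behaved differently at this locus, since miR-142b held 63 to 207 counts per library beside 29253 to 114677 for miR-142a-3p.

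**Figure D1:**
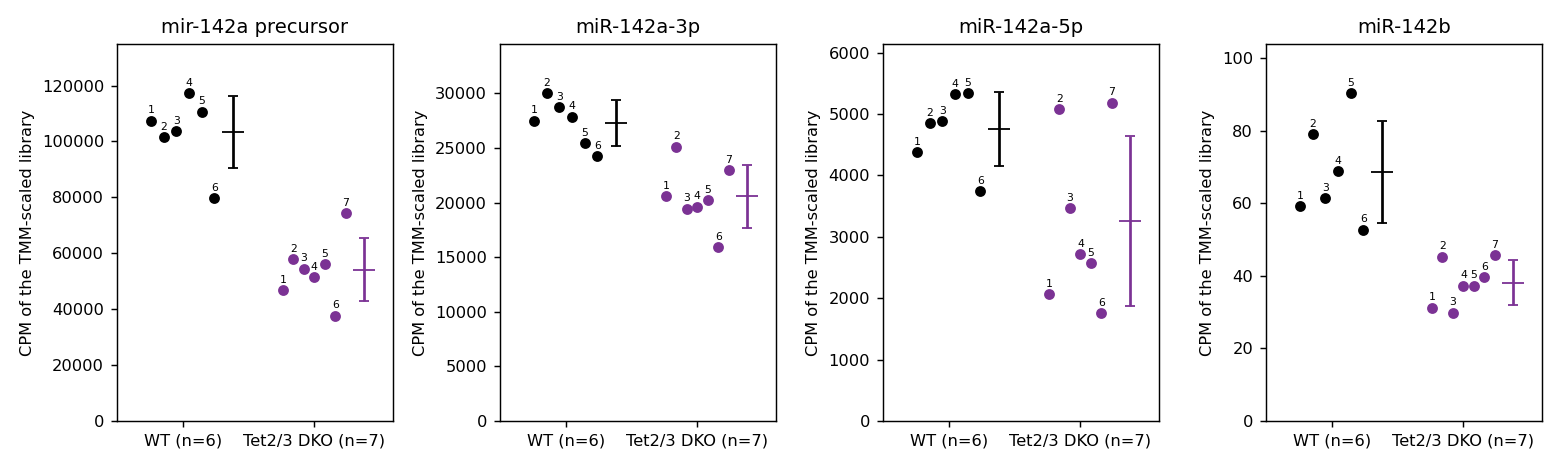
CPM of the TMM-scaled library (vertical axis, from 0) for mir-142a and the 3 mature sequences in each mouse, with WT in black (n = 6) and *Tet2/3* DKO in purple (n = 7). Small digits are replicate numbers, and bars give mean ± SD. The genotypes are apart for mir-142a and miR-142b, while *Tet2/3* DKO replicate 2 lies within the WT points of miR-142a-3p and replicates 2 and 7 within those of miR-142a-5p.

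miR-142a-3p, the more abundant arm, was lower in *Tet2/3* DKO by less than the precursor. WT libraries held 24281 to 30016 CPM with a median of 27680, and *Tet2/3* DKO libraries 15917 to 25114 with a median of 20245. Replicate 2 was the only *Tet2/3* DKO library above the lowest WT library. The means were 27306 ± 2108 (SD, n = 6) and 20556 ± 2894 (SD, n = 7), which is -0.41 in log2 units (SE 0.106, edgeR, adjusted p = 0.00241). Of 401 tested mature sequences, 27.4% were called lower, 28.2% higher, and 30.7% were lower by at least as much as miR-142a-3p. With libraries scaled by their totals only, the difference was -0.15 and not past the threshold (edgeR, adjusted p = 0.338).

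miR-142a-3p was steady among mice of one genotype. The SD of its log2 CPM was 0.113 in WT and 0.206 in *Tet2/3* DKO, against medians of 0.382 and 0.378 over all tested mature sequences. Only 3.99% of mature sequences had a smaller SD in WT, and 13.2% in *Tet2/3* DKO. By mean CPM it ranked 10 in WT and 11 in *Tet2/3* DKO. In WT its neighbours in rank were let-7d-5p (28199 ± 1842 CPM) above and miR-150-5p (26723 ± 6756) and miR-23a-3p (25896 ± 1872) below, and the ranges of all 3 overlapped its own. miR-15b-5p, 2 ranks above at 38583 ± 5338 CPM (SD, n = 6), did not overlap it.

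miR-142a-5p did not pass the threshold, and its values in *Tet2/3* DKO were widely spread. WT libraries held 3747 to 5340 CPM with a median of 4873, and *Tet2/3* DKO libraries 1760 to 5185 with a median of 2712. *Tet2/3* DKO replicates 2 and 7 (5076 and 5185 CPM) lay within the WT range, and the other 5 lay below the lowest WT library. The means were 4757 ± 609 (SD, n = 6) and 3264 ± 1384 (SD, n = 7), a change of -0.54 in log2 units (SE 0.234, edgeR, adjusted p = 0.0623). The call turned on single mice. Without WT replicate 6 the log2 fold change was -0.68 (adjusted p = 0.0378), without *Tet2/3* DKO replicate 2 it was -0.71 (adjusted p = 0.0195), and without *Tet2/3* DKO replicate 7 it was -0.77 (adjusted p = 0.00893), all by edgeR. limma-voom with sample weights on all 13 libraries gave -0.70 (adjusted p = 0.00249).

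The spread of miR-142a-5p was unequal between genotypes. The SD of its log2 CPM was 0.194 in WT, where 18.0% of mature sequences had a smaller one, and 0.604 in *Tet2/3* DKO, where 75.3% did. Its rank by mean CPM was 30 in WT and 40 in *Tet2/3* DKO. Its WT neighbours were let-7j (5185 ± 1060 CPM), miR-146a-5p (4863 ± 680), miR-20a-5p (4734 ± 577) and miR-125a-5p (4612 ± 1455), and all 4 overlapped its range.

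miR-142b, annotated on the opposite strand, was scarce and lower in *Tet2/3* DKO with no overlap in TMM-scaled CPM. WT libraries held 52.7 to 90.4 CPM (63 to 177 counts) with a median of 65.1, and *Tet2/3* DKO libraries 29.9 to 45.8 CPM (84 to 207 counts) with a median of 37.3. The means were 68.6 ± 13.98 (SD, n = 6) and 38.1 ± 6.19 (SD, n = 7), or -0.85 on the log2 scale (SE 0.184, edgeR, adjusted p = 0.000518). For comparison, 27.2% of tested mature sequences did not overlap between genotypes, and 14.5% were lower with no overlap. As unscaled shares of the library, the miR-142b values of the genotypes did overlap. *Tet2/3* DKO replicates 2 (0.00552%) and 7 (0.00555%) lay above WT replicate 6 (0.00493%). miR-142b ranked 180 in WT and 216 in *Tet2/3* DKO. In WT its 4 nearest neighbours, miR-328-3p, miR-532-3p, miR-200a-3p and miR-30b-3p, had means of 66.5 to 70.3 CPM, and the range of each overlapped its own. The sequence of miR-142b is the exact reverse complement of part of miR-142a-3p, and the strand setting of the counting is not given. Whether its few counts hold reads of miR-142a-3p matched in reverse was not tested.

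**Figure D2:**
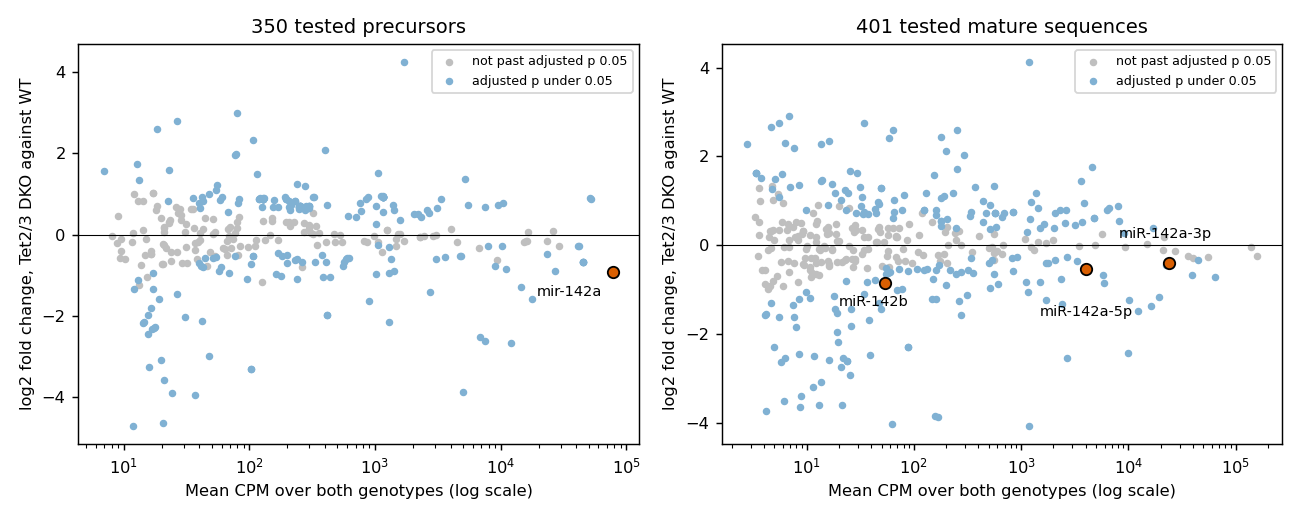
Log2 fold change (*Tet2/3* DKO against WT, vertical axis) against mean CPM over both genotypes (log axis) for the 350 tested precursors and the 401 tested mature sequences. Blue points passed an adjusted p of 0.05, grey points did not, and the members are in orange. mir-142a lies at the high end of abundance at -0.93, and the mature members lie at -0.41, -0.54 and -0.85.

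The 3p arm exceeded the 5p arm in every library. It made up 82.7% to 86.6% of the counts of both arms in WT and 81.6% to 90.9% in *Tet2/3* DKO. In WT there were 4.77 to 6.48 counts of miR-142a-3p per count of miR-142a-5p (median 6.03, mean 5.80 ± 0.667, SD, n = 6). In *Tet2/3* DKO there were 4.43 to 9.97 (median 7.23, mean 7.01 ± 2.10, SD, n = 7). The *Tet2/3* DKO values lay on both sides of the WT range: replicates 1, 4, 5 and 6 were above the highest WT library, and replicate 7 was below the lowest. The mean log2 ratio was 2.53 ± 0.172 (SD) in WT and 2.75 ± 0.446 (SD) in *Tet2/3* DKO, which differ by 0.22 (p = 0.273 in an exact two-sided permutation test, adjusted p = 0.273 over the 3 ratios of this locus). In a limma fit over 98 miRNAs with both arms tested, the adjusted p was 0.472 (SE 0.208). In that fit 12.2% of miRNAs passed the threshold (7.14% lower and 5.1% higher in *Tet2/3* DKO), 6.12% did not overlap between genotypes, and the median difference over all of them was 0.0906. The 3p arm was the higher one in WT for 34 of the 98 miRNAs and the 5p arm for 64.

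The precursor row changed more than the arms did. In WT there were 1.22 to 1.59 precursor counts per count of both arms (median 1.32, mean 1.36 ± 0.149, SD, n = 6). In *Tet2/3* DKO there were 0.787 to 1.05 (median 1.03, mean 0.985 ± 0.0952, SD, n = 7). The genotypes did not overlap. The mean log2 ratio was 0.44 ± 0.155 (SD) in WT and -0.03 ± 0.150 (SD) in *Tet2/3* DKO. The difference was -0.47, or 0.723 of the WT ratio (p = 0.000583 in the exact permutation test, the smallest that 1716 divisions of the mice allow, adjusted p = 0.00175 over the 3 ratios). A limma fit over 219 precursors gave an adjusted p of 0.00578 (SE 0.0966). In that fit 23.3% of precursors were called (9.59% lower and 13.7% higher in *Tet2/3* DKO) and 8.68% did not overlap, and the median difference was -0.01. Each precursor was divided there only by tested mature sequences that carry its own name. Numbered hairpins therefore miss arms named without the number, as with mir-24-1 and mir-16-2 (WT mean log2 ratios 11.5 and 11.4). These shares are only a rough background for a ratio to both arms. A ratio within a mouse does not depend on the scaling of levels. The precursor row can also hold counts from the opposite strand and reads of the mature arms. Whether a read is counted in both tables is not given in the sources used here. The numbered hairpins mir-16-1 and mir-16-2 had near-equal WT means (46197 and 45098 CPM). The ratio therefore cannot be read as a change of the uncut hairpin alone.

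miR-142b counts were scarcer relative to miR-142a-3p in *Tet2/3* DKO, with overlap between genotypes. With the strand setting not given, this ratio cannot be read as a change of a separate opposite-strand miRNA alone. There were 2.14 to 3.55 miR-142b counts per 1000 miR-142a-3p counts in WT (median 2.32, mean 2.52 ± 0.543, SD, n = 6) and 1.52 to 2.49 in *Tet2/3* DKO (median 1.84, mean 1.87 ± 0.328, SD, n = 7). WT replicate 5 was the highest of all. *Tet2/3* DKO replicate 6 was the only library of its genotype within the WT range. The difference of the mean log2 ratio was -0.43, or 0.745 of the WT ratio (p = 0.0117 in the exact permutation test, adjusted p = 0.0175 over the 3 ratios). With medians in place of means it was -0.33 and not past the threshold (exact permutation test, p = 0.0682).

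**Figure D3:**
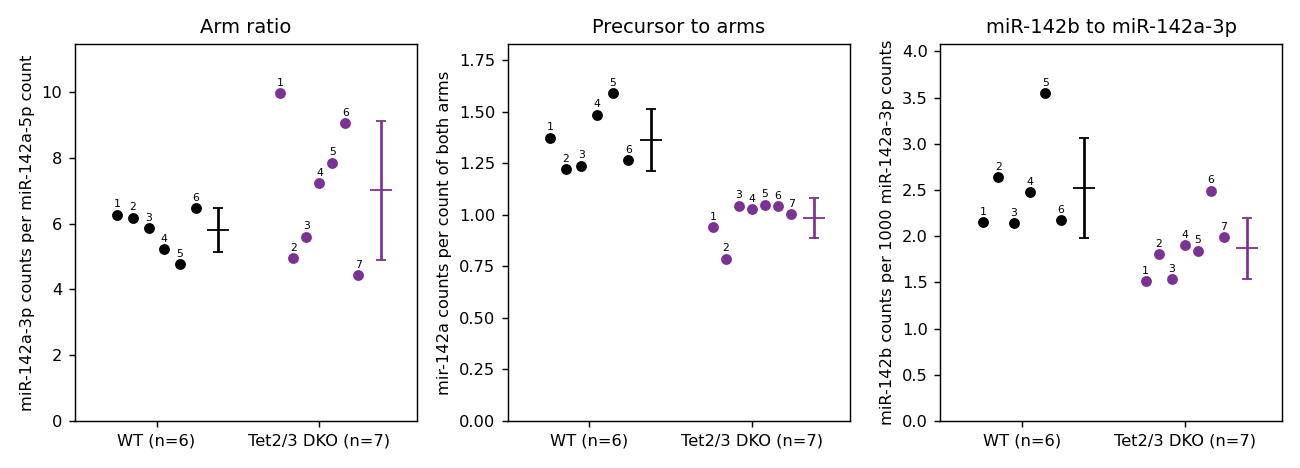
The 3 ratios of raw counts in each mouse, as miR-142a-3p counts per miR-142a-5p count, mir-142a precursor counts per count of both arms, and miR-142b counts per 1000 miR-142a-3p counts (vertical axes from 0). WT (n = 6) is black and *Tet2/3* DKO (n = 7) purple, digits are replicate numbers, and bars give mean ± SD. Only the middle panel shows no overlap, with WT at 1.22 or more and *Tet2/3* DKO at 1.05 or less.

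**Figure D4:**
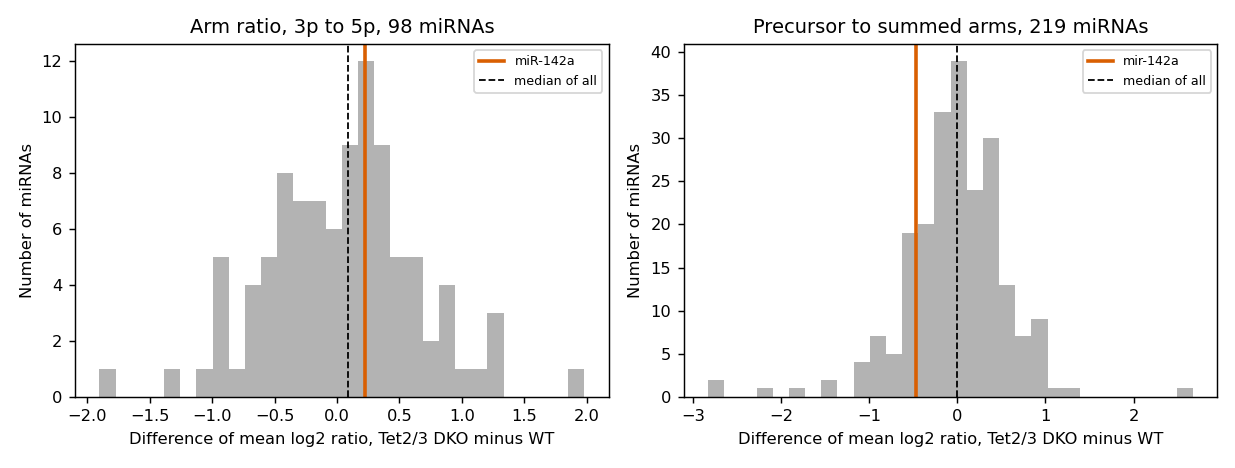
Number of miRNAs (vertical axis) by the difference of the mean log2 ratio, *Tet2/3* DKO minus WT. The arm ratio is shown over 98 miRNAs. The ratio of precursor to the summed mature sequences of the same name is shown over 219, where numbered hairpins can miss an arm. The orange line marks miR-142a (0.22 and -0.47), and the dashed line the median of all. The miR-142a arm ratio lies near the middle of its histogram and the precursor ratio on its lower side.

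The sizes of these changes depended on the scaling of the libraries. Relative to TMM, scaling by library totals raised the median log2 fold change of all tested precursors by 0.34 and of mature sequences by 0.25, and upper-quartile scaling moved them by -0.24 and -0.16. RLE size factors moved the median of precursors by -0.11. The split of calls moved with it. Of all precursors called, 45.5% were lower with TMM, 27.1% with library totals and 59.6% with the upper quartile, and of all mature sequences called 49.3%, 35.2% and 59.7%. The log2 fold change of mir-142a was -0.59 with library totals and -1.18 with the upper quartile. A change of scaling moves all miRNAs by nearly the same amount, so a value minus the median of all miRNAs hardly moves by construction and is no test of stability. Minus the median of all tested precursors under the same scaling, mir-142a was at -0.96 with TMM and -0.94 to -0.96 with the others. The same quantity, against mature sequences, was -0.39 to -0.40 for miR-142a-3p, -0.48 to -0.54 for miR-142a-5p and -0.82 to -0.84 for miR-142b over the 4 scalings. It did depend on which rows entered the median and on the tool. For mir-142a it was -0.54 in edgeR without a filter on low counts (1115 precursors). With DESeq2, where the median was taken over the same unfiltered rows, it was -0.44 for mir-142a. Among the mature members DESeq2 gave -0.12 for miR-142a-3p, -0.25 for miR-142a-5p and -0.57 for miR-142b.

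**Figure D5:**
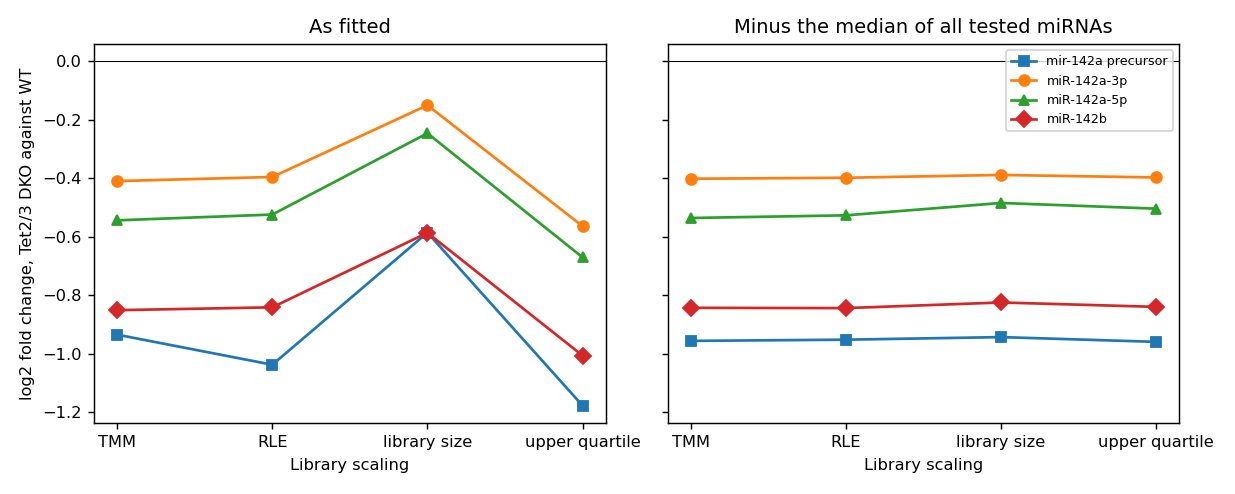
Log2 fold change of the 4 members (*Tet2/3* DKO against WT, vertical axis) under 4 scalings of the libraries (horizontal axis), as fitted and after subtraction of the median of all tested miRNAs under that scaling. As fitted, mir-142a runs from -1.18 to -0.59; minus the median, the lines are nearly flat by construction.

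The patterns most like each mature member were taken as the smallest root mean square difference of centred log2 CPM over the 13 libraries, among 388 tested mature sequences, with rows of identical counts taken once. They are descriptions, since all share the same libraries. miR-142a-3p was nearest to miR-500-3p (0.142), miR-148b-3p (0.174) and miR-30e-5p (0.181), against a median of 0.614 over all. miR-142a-5p was nearest to miR-141-3p (0.208) and miR-500-3p (0.331), and only then to its partner arm miR-142a-3p (0.340), against a median of 0.784. miR-142b was nearest to miR-3074-5p (0.127), miR-29a-3p (0.180) and miR-140-5p (0.215), against a median of 0.732. miR-3074-5p, like miR-142b, is annotated opposite to a more abundant miRNA, there miR-24-3p. The mean of miR-3074-5p was 7664 CPM in WT and 4215 in *Tet2/3* DKO (log2 fold change -0.86, SE 0.117, adjusted p = 2.86e-06, edgeR), and that of miR-24-3p was 25571 and 18859 CPM (-0.44, SE 0.0956, adjusted p = 0.000538, edgeR).

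Other miRNAs of blood lineages were counted from a list that holds miR-144 and miR-451a (red cells), miR-223 (myeloid cells), miR-150 (mature lymphocytes), miR-155 (activated lymphocytes and myeloid cells) and miR-342 (lymphocytes and myeloid cells). Of 6 precursors, 5 were tested, and 3 were lower, 1 was higher and 1 did not pass, where 27.1% of all tested precursors were lower and 32.6% higher. Their median log2 fold change was -1.28, against 0.02 over all precursors. Of 10 mature sequences, 7 were tested, and 6 were lower, 0 higher and 1 did not pass, where 27.4% of all tested mature sequences were lower and 28.2% higher. Their median was -1.05, against -0.01 over all. miR-150-5p stood beside miR-142a-3p in WT and was lower by more, at 26723 ± 6756 CPM (SD, n = 6) and 11833 ± 3403 (SD, n = 7), log2 fold change -1.18 (SE 0.183, adjusted p = 3.58e-05, edgeR). mir-155 was the precursor that was higher (0.68, SE 0.225, adjusted p = 0.0141, edgeR). Among the mature sequences of the list, the largest differences were in the erythroid miR-451a (-3.64, SE 0.573, adjusted p = 1.92e-05) and the myeloid miR-223-3p (-3.07, SE 0.777, adjusted p = 0.00401, both edgeR). Their WT means were 16.2 ± 9.30 and 24.02 ± 33.6 CPM (SD, n = 6). Both rested on few counts. miR-451a held 8 to 52 in WT and 0 to 11 in *Tet2/3* DKO. miR-223-3p held 3 to 224 and 3 to 30, and its genotypes overlapped.

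The nearest miRNA genes on chromosome 11 lay far from mir-142a. mir-301a lies 643774 bases before it, and its log2 fold change was 0.94 (SE 0.235, adjusted p = 0.00266, edgeR), opposite in direction to mir-142a. mir-378b lies 595845 bases after it and held 217 counts over 13 libraries, and its value was -0.50 in log2 units (SE 0.396, edgeR, adjusted p = 0.289). mir-3063, 8206364 bases after it, held 16 counts in all and was not tested.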

How the data were processed

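Thymic iNKT cells of 6 WT and 7 *Tet2/3* DKO mice were sorted, and small RNA libraries were sequenced from one end. The authors processed reads with nf-core/smrnaseq with default parameters (build mm10 per the labels) and deposited raw counts per hairpin and per mature sequence, not normalized. The handling of reads that match several sequences and the strand setting are not given in the sources used here. The label of each column gave the mouse, and 0 columns were unused.

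Members, gene lists and tests were chosen with earlier results of these data known. From the deposited counts, rows were kept by filterByExpr (minimum count 10, minimum total 15) and tested with edgeR 4.0.16 (TMM, robust quasi-likelihood fit, genotype only, Benjamini-Hochberg adjustment within each table, threshold 0.05). The SE is the log2 fold change divided by the square root of its F value. Ratios used raw counts plus 0.5 on the log2 scale, with an exact permutation test over 1716 divisions and limma 3.58.1 over all miRNAs. Scripts were tested on simulated data. R 4.3.3, DESeq2 1.42.0, Python 3.11.15 and matplotlib 3.10.9 were used. Each pair of libraries of one genotype, compared in both tables (72 comparisons), differed by far more than sampling noise (lowest chi-square over its degrees of freedom 17.9), and each library was 1 replicate. Reads were counted without molecular identifiers, so the true error exceeds that of counting.

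Beside the members, the text names the overlapping hairpin mir-142b, the blood-lineage list, the 2 miRNAs next above and below each mature member in mean WT CPM, the 3 with the most similar pattern, miRNAs of the same seed and the nearest miRNA genes on each side. miR-24-3p, mir-203, mir-203b, mir-126a and mir-126b, and the other hairpins given as examples, were named after their values were seen. Alternatives were other scalings, filters, tools, offsets, a replicate block and each library left out.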

Additional observations from a re-analysis of the deposited data

Results flagged for a closer look

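In 80 groups of values that were checked for a library far from the others of its genotype, 6 held one, where chance gives about 4. WT replicate 6 was the lowest WT library for the mir-142a precursor at 16.28 log2 CPM, where the next was 16.63, and for the overlapping mir-142b at 16.29, where the next was 16.63. These 2 rows hold nearly the same counts. *Tet2/3* DKO replicate 2 had the lowest log2 ratio of mir-142a precursor to summed arms at -0.3458, where the next was -0.09. Among the miRNAs named beside the members, WT replicate 5 was lowest for miR-20a-5p at 11.84 log2 CPM (next 12.16), *Tet2/3* DKO replicate 2 was highest for miR-140-5p at 10.47 (next 10.14), and WT replicate 3 was highest for the mir-155 precursor at 8.237 (next 7.21).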

How the results depend on the processing

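Of 144 values under alternative settings of the 7 results, 136 kept the direction and the side of the threshold and 0 reversed. miR-142a-5p passed with limma-voom (log2 fold change -0.70) and with a replicate block, which leaves out the unpaired *Tet2/3* DKO replicate 7 (-0.86, adjusted p = 0.000147, edgeR), and ranged from -0.77 to -0.46 with 1 library left out. miR-142a-3p did not pass with library totals only (-0.15), and the ratio of miR-142b to miR-142a-3p did not pass with medians (-0.33) or with the block (-0.44, exact sign-flip permutation test over 6 pairs, p = 0.0625). The ranges with 1 library left out were -1.03 to -0.85 for mir-142a, -0.52 to -0.38 for miR-142a-3p, -0.99 to -0.83 for miR-142b, 0.13 to 0.32 for the arm ratio, -0.50 to -0.42 for precursor to arms and -0.50 to -0.32 for miR-142b to miR-142a-3p. The causes were not tested.

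Replicate numbers were shared by both genotypes, but the correlation of deviations between mice of one number was -0.05 to 0.34 for precursors and 0.01 to 0.34 for mature sequences, and 6 and 4 of 12 samples correlated best with their own number. With the block 102 precursors were called lower and 115 higher, against 100 and 111 without *Tet2/3* DKO replicate 7 and no block. Precursors called lower were 56 of 350 tested with library totals (151 higher), 156 of 1115 without a filter (132 higher) and 160 of 746 with DESeq2 (108 higher). Centred on the median ratio of all precursors, an alternative chosen after seeing the data, the precursor ratio differed by -0.50. miR-142b, with as few as 63 counts in a library, is the member most limited by depth.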
